A study of Mus musculus with 9 samples.

Results

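The vesicular glutamate transporters *Slc17a6* (VGLUT2), *Slc17a7* (VGLUT1) and *Slc17a8* (VGLUT3) were followed in nuclei of adult mouse spinal cord that carried a genetic label for the cholinergic fate. The members were the listed genes that had a row in the deposited matrix of cholinergic nuclei. Of the 3 genes, *Slc17a6* and *Slc17a8* were among its 21457 features, and *Slc17a7* was not analysed here. Each gene was described over the 21 named clusters and per nucleus beside *Chat*, the gene of choline acetyltransferase, with libraries as replicates. No clusters were drawn anew.

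Vesicular glutamate transporters are membrane proteins that load glutamate into synaptic vesicles, using the electrochemical gradient that the vesicular proton pump sets up. *Slc17a6* is the main transporter of spinal excitatory interneurons, *Slc17a7* is that of primary afferents and corticospinal fibres, and *Slc17a8* is known for turning up in neurons that release another transmitter as well, among them cholinergic interneurons of the striatum. Cholinergic neurons make acetylcholine with *Chat*, load it with *Slc18a3* and take choline back up with *Slc5a7*. A nucleus that holds RNA of both *Chat* and a glutamate transporter is one that could release both transmitters, although RNA alone does not show that the protein is made or that glutamate is released.

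The study sorted GFP-positive nuclei from spinal cords of 12 mice, 8 weeks old, that were Chat-iCre +/wt and SUN-SfGFP +/wt. In these mice Cre is driven from the *Chat* locus and switches on a nuclear envelope protein fused to GFP for good, so the sort also takes nuclei of cells that used *Chat* only earlier in life. All groups carry both alleles, and there was no treatment. The mice formed 3 pools of 4 (replicate 1 with both sexes, replicate 2 male, replicate 3 female), and each pool was cut into cervical, thoracic and lumbar/sacral cord, which gave 9 libraries. Libraries that carry the same replicate number thus share their animals, and a library is an average over 4 animals. Of 34231 annotated nuclei, 13223 were called excitatory, 4966 inhibitory and 16042 cholinergic, and these last were split into skeletal motor neurons (MNs; 5054 nuclei, S1 to S3), visceral MNs (5613 nuclei, V1 to V10) and cholinergic interneurons (5375 nuclei, I1 to I8).

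The values are corrected counts, in which the deposited processing has evened out depth between nuclei of the same library. Each library held 9751375 to 19432614 of them over its cholinergic nuclei, and the median nucleus held 7381. Depth still differed between libraries. The median nucleus held 4712, 7175 and 5701 in lumbar/sacral 1 to 3, and 7087 (cervical 1) to 16127 (cervical 2) in the others. Shares of nuclei are therefore compared between libraries at unlike depth, except where nuclei were thinned to a common total. Class labels fitted their markers: *Tns1*, a focal adhesion gene used as a skeletal MN marker, was found in 91.4% of skeletal MNs, *Fbn2*, a fibrillin gene used as a visceral MN marker, in 83.1% of visceral MNs, and *Mpped2* in 64.9% of interneurons outside I6 and 88.0% of I6. The region labels fitted less well. *Hoxc5*, a homeobox gene of positional identity, was at 25.4, 73.3 and 22.5 CPM (corrected counts scaled to 1 common total for all libraries) in the libraries labelled cervical 1 to 3 and at 85.3, 13.9 and 84.2 CPM in those labelled thoracic 1 to 3, so the cervical and thoracic libraries of replicate 2 went against their labels. Comparisons by region were therefore made between lumbar/sacral libraries (81.1 to 93.6 CPM) and all others, which is the same contrast whichever of the other labels a library carries.

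The share of a library's annotated nuclei called excitatory ran from 24.5% to 48.7%, and was 47.0% to 48.7% in the lumbar/sacral libraries. Doublet scores marked 164 cholinergic nuclei (1.02%), and 33 of 16009 distinct barcodes occurred in more than 1 library.

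*Slc17a6* lies on chromosome 7 of GRCm38 (chr7:51622006-51671119, plus strand, up to 12 exons), where GENCODE vM21 places an unverified gene model, Gm45072, on the same strand within it, so reads of these cannot be told apart. *Slc17a8* lies on chromosome 10 (chr10:89574020-89621253, minus strand, up to 12 exons) and overlaps no other gene model. *Chat* lies on chromosome 14 (chr14:32408203-32465989, minus strand) and contains *Slc18a3* on the same strand, so *Chat* counts can include reads of that transporter; *Slc18a3* itself was not analysed here.

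*Slc17a6* was sparse in cholinergic nuclei and concentrated in 1 cluster of interneurons, I6. At least 1 corrected count was present in 807 of 16042 nuclei (5.03%, 95% Wilson interval 4.70% to 5.38%). Of these, 694 held 1 count, 93 held 2, and 20 held 3 to 5. I6 made up 544 of all nuclei, yet it held 147 of the 807 nuclei with *Slc17a6* (18.2%) and 38 of the 113 with at least 2 counts (33.6%).

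In I6 the share of nuclei with *Slc17a6* was 22 of 87 (25.3%), 7 of 27 (25.9%) and 16 of 50 (32.0%) in the libraries labelled cervical 1 to 3. It was 12 of 48 (25.0%), 24 of 86 (27.9%) and 18 of 75 (24.0%) in the libraries labelled thoracic, and 14 of 56 (25.0%), 19 of 58 (32.8%) and 15 of 57 (26.3%) in the lumbar/sacral libraries. At the deposited depth the shares were close to one another in every library, with a mean of 27.1% ± 3.17 (SD, n = 9). Outside I6 the share over all cholinergic nuclei was 4.17% ± 1.11 (2.64% to 6.49%), and no library reached the lowest I6 value.

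The within-library difference between I6 and all other nuclei was 22.96 ± 2.36 percentage points (9 of 9 libraries higher in I6). When each nucleus was thinned to 4600 corrected counts, leaving out the 8.63% of nuclei with fewer, the shares were 16.2% in I6 and 2.93% outside it. The nuclei left out were 44.1% of lumbar/sacral 1 and 13.6% of lumbar/sacral 3, and no other library lost any. In I6, 31 of 56 nuclei of lumbar/sacral 1 and 47 of 57 of lumbar/sacral 3 remained. The thinned I6 shares were less even, from 0% in the library labelled cervical 2 (27 nuclei) to 27.6% in lumbar/sacral 2. In cervical 2 the thinned share outside I6 was 1.53%, so I6 was not the higher there. With a minimum of 2 counts the shares were 6.72% in I6 and 0.548% outside it, and again 0% in I6 of cervical 2. No test is given for I6 against other clusters, since the clusters were drawn by the study from the same nuclei and genes.

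**Figure D1:**
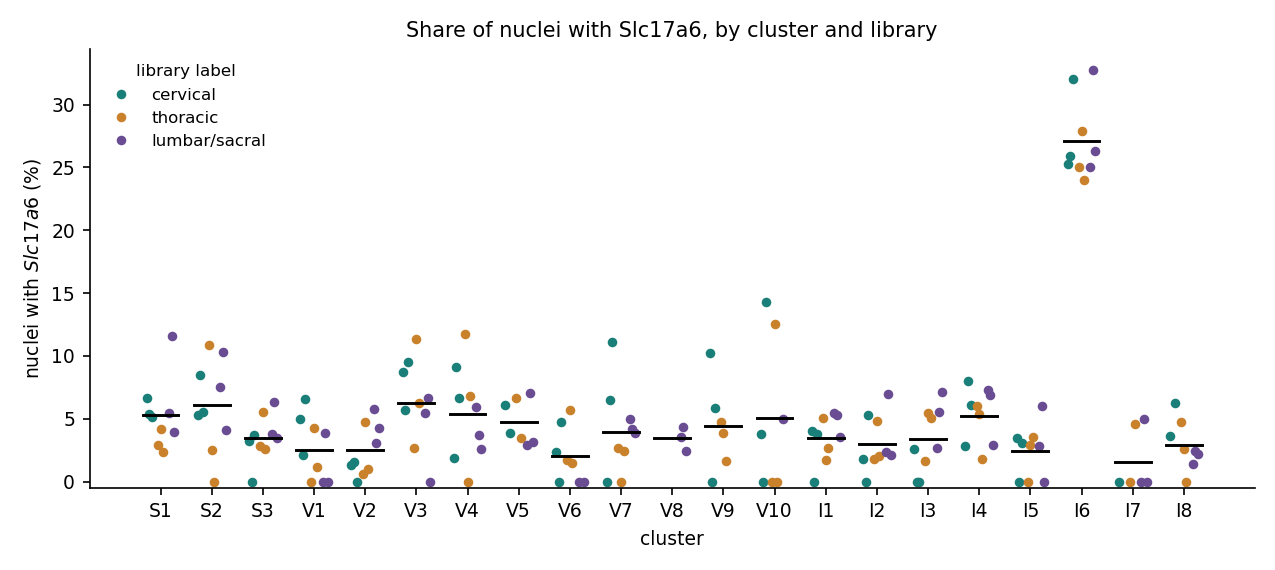
Nuclei in which *Slc17a6* was found (% of the cluster in a library, 1 corrected count or more, vertical axis) in each of the 21 clusters (horizontal axis). Each point is a library with at least 10 nuclei of the cluster, coloured by its region label, and the black line is the mean over libraries; I6 lies at 24.0% to 32.8% in all 9 libraries, above all other clusters' means.

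Below I6 the clusters formed a graded order with few clear steps. V3 (6.26% ± 3.47), S2 (6.08% ± 3.59), V4 (5.38% ± 3.71), S1 (5.29% ± 2.72) and I4 (5.25% ± 2.19) came next, followed by V10 (5.08%), V5 (4.74%), V9 (4.40%) and V7 (3.97%). These neighbours did not differ beyond the spread of their within-library differences. I1 (3.50%), S3 (3.50%), V8 (3.44%), I3 (3.35%), I2 (3.01%) and I8 (2.90%) lay lower, and V1 (2.54%), V2 (2.49%), I5 (2.42%), V6 (2.00%) and I7 (1.59%) closed the order.

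The step from I6 to V3 was 20.87 ± 3.73 points (9 of 9 libraries). The only other step larger than its own SD was that from S3 to V8, 1.09 ± 0.91 points in the 3 libraries where both could be measured. The skeletal clusters, where alpha and gamma MNs are found, and the visceral clusters, which are preganglionic autonomic neurons, thus overlapped in their *Slc17a6* shares.

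In I5, another interneuron cluster, *Slc17a6* was in 16 of 584 nuclei, 1 count in each, and I6 exceeded I5 by 24.71 ± 2.71 points (9 of 9 libraries).

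In level, *Slc17a6* was at 45.1, 16.4 and 45.9 CPM in I6 of the cervical 1 to 3 libraries, at 37.4, 50.6 and 33.8 CPM in the thoracic libraries, and at 62.3, 60.4 and 62.3 CPM in the lumbar/sacral libraries. The lumbar/sacral values were above all 6 others. In bulk sums of this kind, fewer nuclei with a transcript and less RNA per nucleus cannot be told apart. For the shares, the lumbar/sacral libraries had a mean share of 28.0% ± 4.15 (n = 3) against 26.7% ± 2.91 (n = 6) in the others (two-sided exact permutation test over 84 groupings, p = 0.607).

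The level difference, 0.69 on the log2(CPM + 5) scale (SE 0.287), did not pass limma's test over all genes in I6 (unadjusted p = 0.033, adjusted p = 0.58), in which 0.845% of 10055 genes were called. Outside I6 the lumbar/sacral libraries were also at the upper end, at 10.9, 9.92 and 6.35 CPM against 3.53 to 7.11 CPM, and the excitatory share of the sort was higher in all 3. The part of these other nuclei in the level was not tested.

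Over whole classes, *Slc17a6* was at 3.17 to 12.0 CPM in skeletal MNs (mean 7.48 ± 2.99, n = 9), at 3.03 to 10.0 CPM in visceral MNs (6.13 ± 2.49) and at 3.55 to 13.6 CPM in interneurons (9.81 ± 3.0). The ranges overlapped widely. As shares, the lowest, median and highest library were at 2.19%, 4.82% and 8.47% in skeletal MNs, at 2.39%, 4.16% and 6.68% in visceral MNs, and at 5.19%, 5.84% and 7.95% in interneurons.

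In the limma fit over the 27 library sums with library as a covariate, where 59.5%, 66.7% and 51.4% of 11292 genes were called between interneurons and skeletal MNs, visceral and skeletal MNs, and interneurons and visceral MNs, *Slc17a6* was called in the last contrast only. It was 0.41 higher in interneurons than in visceral MNs on the log2(CPM + 5) scale (SE 0.108, limma adjusted p = 0.00305). The difference between interneurons and skeletal MNs was 0.25 (SE 0.108, limma adjusted p = 0.0507), and that between visceral and skeletal MNs was -0.16 (SE 0.108, limma adjusted p = 0.201). A call in any of these contrasts is at the background rate of genes that differ, and it describes the study's own class labels.

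Both interneuron differences rested on I6. Without that cluster, in a setting chosen after seeing the data, interneurons were 0.26 lower than skeletal MNs (log2 difference -0.26, limma adjusted p = 0.0397) and -0.10 from visceral MNs (limma adjusted p = 0.445). The share in interneurons outside I6 was 3.46% ± 1.14, below the skeletal mean of 4.91% ± 1.66 and the visceral mean of 4.11% ± 1.32.

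**Figure D2:**
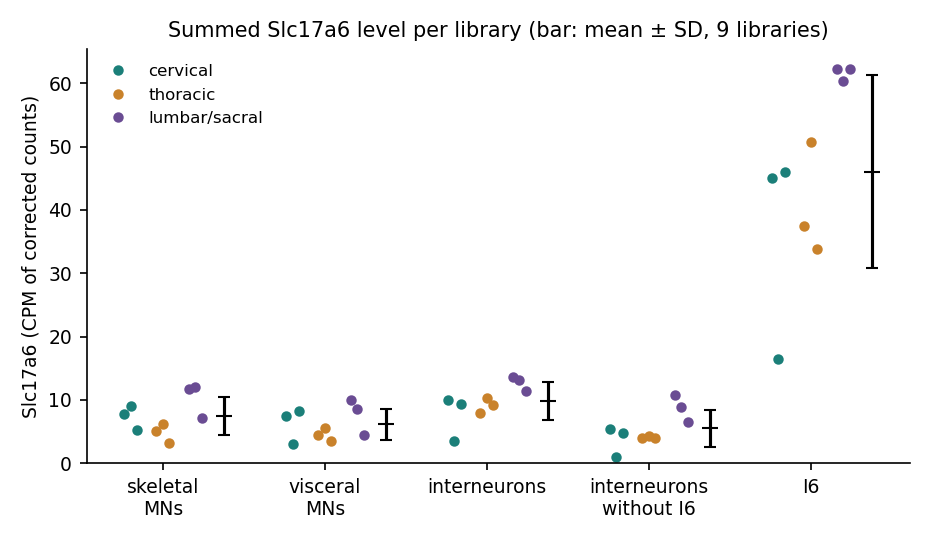
Summed *Slc17a6* level (CPM of corrected counts, vertical axis) in skeletal MNs, visceral MNs, interneurons, interneurons without I6 and I6. Points are the 9 libraries coloured by region label, and the black bar is the mean ± SD; I6 has a mean of 46.0 ± 15.2 CPM, and the other interneurons have a lower mean share (3.46%) than skeletal MNs (4.91%).

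Most nuclei with *Slc17a6* also held *Chat*, at a share near that of other nuclei. Of the 807 nuclei with *Slc17a6*, 603 (74.7%) also held *Chat*, against 72.5% of the nuclei without it. Co-detection was measured in each library as the share with *Slc17a6* among nuclei with *Chat* minus that among nuclei without *Chat*. A library entered when each of these kinds had 10 nuclei or more.

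In skeletal MNs the difference per library ran from -5.42 to 5.86 points, with 4 libraries higher and 4 lower (mean 0.32 ± 3.42, n = 8, exact sign-flip p = 0.820, adjusted over all genes 0.966). In visceral MNs it ran from -4.96 to 3.66 points (mean 0.12 ± 2.45, 6 of 9 higher, exact p = 0.875, adjusted 0.954). In both classes the libraries went both ways.

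In interneurons *Slc17a6* was in 6.59% of nuclei with *Chat* and 4.77% of nuclei without, a difference of 1.82 ± 3.27 points (6 of 9 libraries higher, exact sign-flip p = 0.141, adjusted 0.396). Taken within clusters, the difference was -0.34 points. The same test called 0.0% of the 14588, 14590 and 14147 genes tested in skeletal MNs, visceral MNs and interneurons, while 1922, 3894 and 3070 genes had an unadjusted exact p under 0.05. Over all genes tested the median difference was 1.02, 1.24 and 0.55 points in these classes, and 72.8%, 80.7% and 64.5% of genes were above 0. The smallest p that 8 or 9 libraries allow is 0.0078 or 0.0039, so no gene could be called unless very many reached it. The differences between classes in co-detection did not pass an exact test either (p = 0.430 to 0.695).

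The interneuron libraries separated by region. The difference was -1.95, -1.77 and -0.64 points in the lumbar/sacral libraries, and 4.33, 6.57, 0.54, 2.81, 6.14 and 0.38 points in the cervical 1 to 3 and thoracic 1 to 3 libraries. All 3 lumbar/sacral libraries were thus below 0 and all 6 others above it. The gap of -4.92 points, a contrast chosen after seeing these values, had an exact permutation p of 0.0357 over 84 groupings. With exchanges only among libraries of the same mice it had an exact p of 0.037, the smallest that the 27 such groupings allow; the lumbar/sacral value was the lowest in each replicate. Without I6 it was -0.40 points (exact p = 0.738).

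**Figure D3:**
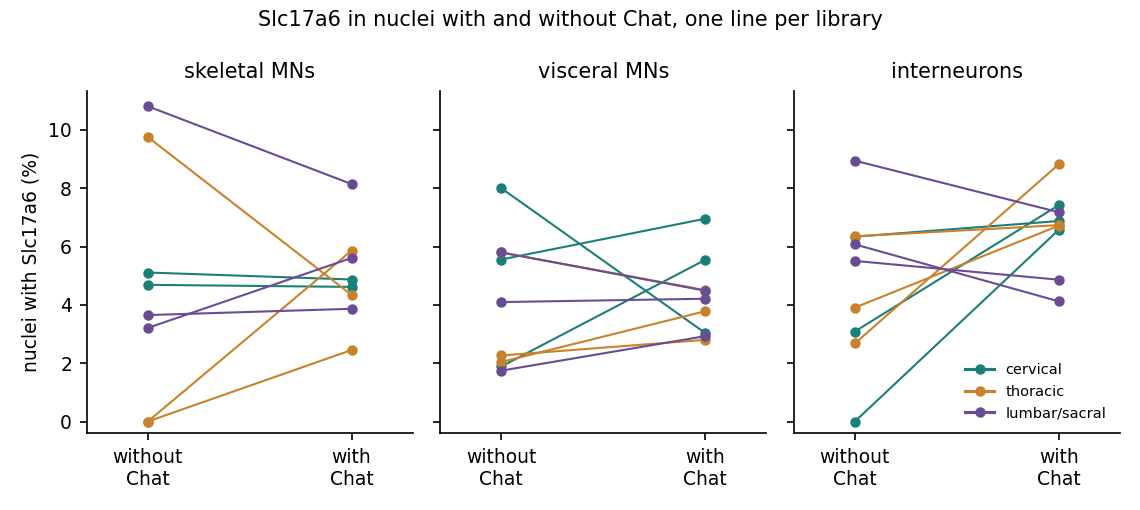
Share of nuclei with *Slc17a6* (%, vertical axis) among nuclei without and with *Chat*, in skeletal MNs, visceral MNs and interneurons. Each line is a library coloured by region label; in interneurons the 3 lumbar/sacral lines fall and the 6 others rise, and in both MN classes lines run in both directions.

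Within I6 the same contrast was read in the other direction, as the share of nuclei with *Chat* among the 147 nuclei with *Slc17a6* and the 397 without it. Pooled, 70.1% of the former and 78.8% of the latter held *Chat*. In the lumbar/sacral libraries the shares with and without *Slc17a6* were 28.6% and 47.6% (replicate 1), 36.8% and 74.4% (replicate 2) and 33.3% and 61.9% (replicate 3). All 3 were lower with *Slc17a6*, and all 3 lay below every other library in either kind of nucleus.

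In the libraries labelled cervical the shares with and without *Slc17a6* were 81.8% and 90.8%, 100% and 95% (7 and 20 nuclei), and 81.3% and 94.1%. In those labelled thoracic they were 100% and 83.3%, 95.8% and 83.9%, and 77.8% and 80.7%. These libraries went both ways, and most I6 nuclei held *Chat* in either state.

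In 8 libraries each kind had 10 nuclei or more, and there the mean difference was -10.2 ± 18.7 points (6 of 8 lower, exact sign-flip p = 0.180). It was -28.4 ± 9.24 points in the 3 lumbar/sacral libraries and 0.78 ± 13.0 in the 5 others. The gap between these, -29.2 points, was again chosen after the values were seen and rested on few nuclei (exact permutation p = 0.0357, 56 groupings). With exchanges only among libraries of the same mice it did not pass (exact p = 0.111 over 18 groupings, smallest possible 0.0556). It lay between -33.8 and -24.6 points when each library was left out in turn, with exact p from 0.0286 to 0.0952. For *Slc5a7*, the choline transporter, the gap was -22.7 points (exact permutation p = 0.0536).

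**Figure D4:**
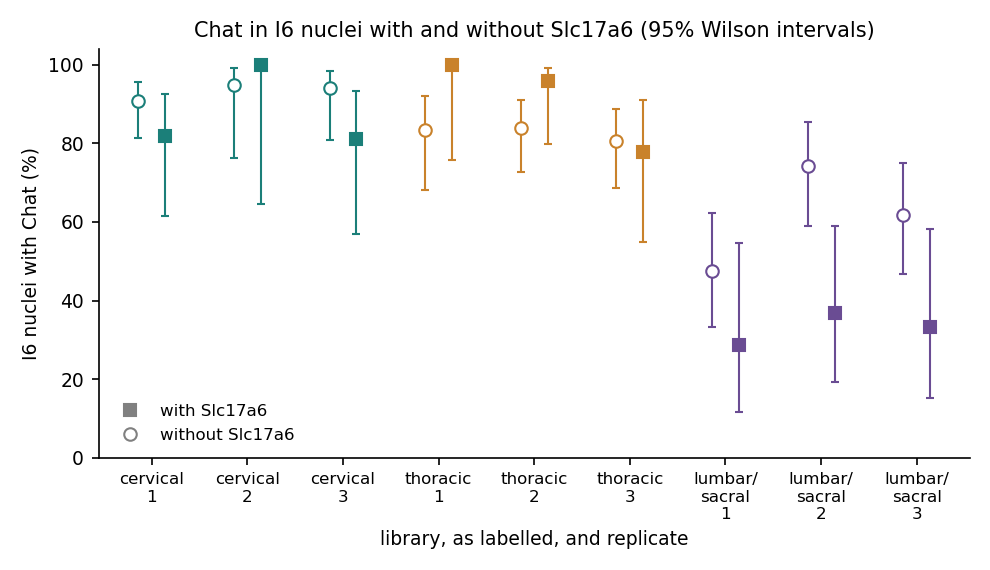
Share of I6 nuclei with *Chat* (%, vertical axis) in each library (horizontal axis), for nuclei with *Slc17a6* (filled squares) and without (open circles). Bars are 95% Wilson intervals, which cover counting error only; the lumbar/sacral squares lie at 28.6% to 36.8%, below their circles, and all squares of the other libraries lie at 77.8% or above.

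Other measures of I6 moved with region too. *Chat* itself was 0.76 lower in lumbar/sacral I6 (log2 difference -0.76, limma adjusted p = 0.0421), and *Slc5a7* was 1.05 lower (-1.05, limma adjusted p = 0.00703), in the fit that gave 13.1% false calls on simulated data.

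Markers of excitatory spinal neurons, summed over the 11 analysed besides *Slc17a6*, were at 41.7, 41.3 and 44.8 CPM in lumbar/sacral I6 nuclei without *Slc17a6*, against 5.87 to 19.1 CPM in the other libraries. The same markers were at 41.2 to 78.0 CPM in skeletal MNs and 25.2 to 57.4 CPM in visceral MNs. The classes differed in which of these markers they held, so their sums are not a measure for I6. *Nts* was found in 14.6% of skeletal MNs, 11.4% of visceral MNs and 2.21% of I6. *Ebf2* was found in 72.8% of interneurons outside I6 and in 3.86% of I6. In lumbar/sacral I6 nuclei with *Slc17a6* the summed markers were at 15.4, 84.0 and 24.4 CPM, against 0 to 62.4 CPM in the other libraries, and these ranges overlapped. Markers of inhibitory spinal neurons were at 46.9, 37.5 and 53.8 CPM in lumbar/sacral I6 nuclei without *Slc17a6*, against 11.7 to 46.8 CPM in the other libraries. Markers of glia and vessel cells were at 30.8 to 73.1 CPM in I6 nuclei with *Slc17a6* and at 36.7 to 80.7 CPM in those without. The part of excitatory nuclei or their RNA in the lumbar/sacral values was not tested.

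Few other genes separated I6 nuclei with *Slc17a6* from those without, in a comparison added after seeing the data. A limma fit of the 16 library sums called 24 of 11319 genes (0.212%), 7 of them higher and 17 lower with *Slc17a6*. Higher were, among others, *Car10* (1.15), *Gabrg3*, a subunit of GABA-A receptors (1.23), *Hs3st4* (0.77), *Lrrtm4*, a synaptic adhesion gene (0.48), and *Rmst* (0.69), all log2 differences. Lower were, among others, *Slit3*, a guidance ligand (-0.81), *Mcc* (-1.06), *Shisa6*, an auxiliary subunit of AMPA receptors (-0.72), and *Syt1*, the calcium sensor of vesicle release (-0.34).

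These genes were picked from the called list after their values were seen. The count fell to 2 without the lumbar/sacral library of replicate 2 and to 6 without that of replicate 3. *Chat* was at -0.44 (SE 0.14, limma adjusted p = 0.314). A test of shares called 0.0% of 10354 genes by exact sign-flip, with 581 at an unadjusted exact p under 0.05. Nuclei with *Slc17a6* had a median of 3249 genes found and those without had 3119.

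*Slc17a8* was found in fewer nuclei and mostly in a different cluster, I8. It was in 83 of 16042 nuclei (0.52%), 66 of them at 1 count. I8, with 329 nuclei, held 44 of the 83 (53.0%) and 13 of the 17 nuclei with at least 2 counts (76.5%). The pooled share in I8 was 13.4%, against 0.27% ± 0.13 (n = 9) over all other cholinergic nuclei.

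The I8 share varied widely between libraries. It was 12 of 83 (14.5%), 0 of 1 and 6 of 16 (37.5%) in the libraries labelled cervical 1 to 3, and 0 of 21, 14 of 39 (35.9%) and 0 of 10 in those labelled thoracic. It was 5 of 72 (6.94%), 3 of 41 (7.32%) and 4 of 46 (8.70%) in the lumbar/sacral libraries. The lumbar/sacral libraries were close to one another, and the others held both the highest shares and the 2 shares of 0, where 21 and 10 nuclei allow a share of up to 14.3% and 30.0%. The spread ran along the doubted labels: outside lumbar/sacral cord, all nuclei with *Slc17a8* in I8 came from the libraries labelled cervical 1, cervical 3 and thoracic 2, which had *Hoxc5* at 13.9 to 25.4 CPM, and none from the 3 at 73.3 to 85.3 CPM.

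The mean over the 8 libraries with at least 10 I8 nuclei was 13.9% ± 14.9, and the lumbar/sacral mean of 7.65% ± 0.92 (n = 3) and that of the others, 17.6% ± 18.4 (n = 5), overlapped (two-sided exact permutation p = 0.393, smallest possible 0.0179). In level the region difference was -0.31 (SE 0.73, limma adjusted p = 0.960), in a fit that called 0.0869% of 10355 genes. Its sign turned without the library labelled thoracic 2, to 0.30 (limma adjusted p = 0.894).

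**Figure D5:**
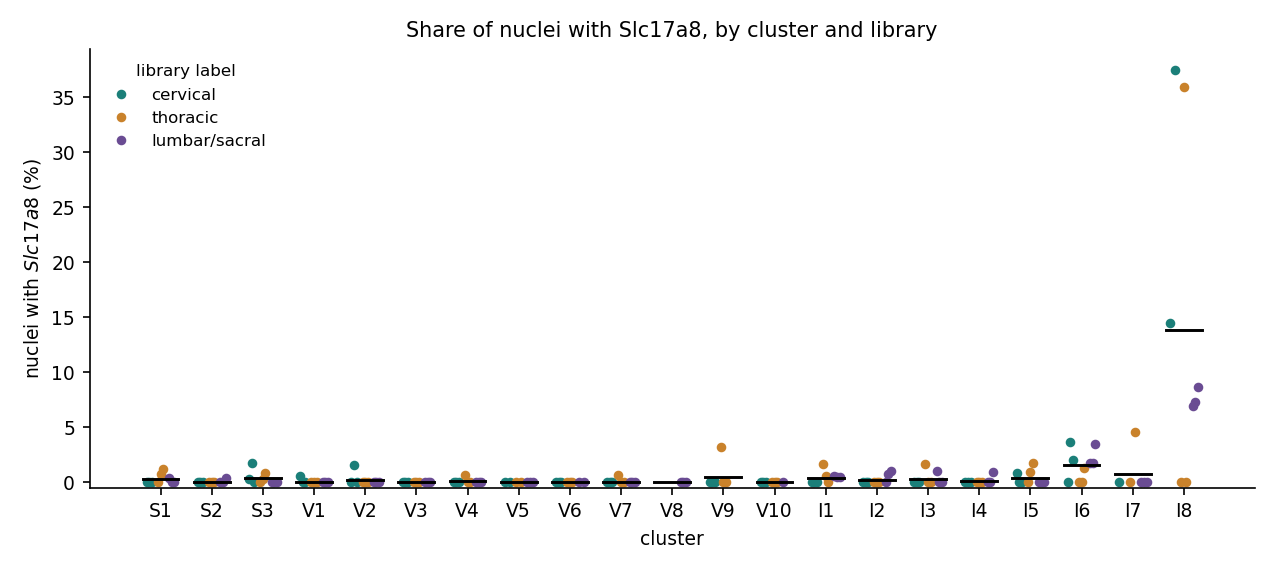
Nuclei in which *Slc17a8* was found (% of the cluster in a library, 1 corrected count or more, vertical axis) in each of the 21 clusters (horizontal axis). Each point is a library with at least 10 nuclei of the cluster, coloured by its region label, and the black line is the mean over libraries; I8 spreads from 0% to 37.5%, and all other clusters have means of 1.56% or less.

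Among the remaining clusters I6 came second for *Slc17a8* (1.56% ± 1.41, 7 of 544 nuclei), and the step from I8 to I6, 12.56 ± 15.04 points, lay within its spread. I7 (0.76%), V9 (0.53%) and I1 (0.43%) followed. No nucleus with *Slc17a8* was found in V3, V5, V6, V8 or V10, which allows shares of up to 0.416%, 0.485%, 0.515%, 0.642% and 1.59%. Skeletal MNs held 9 such nuclei and visceral MNs 6, all at 1 count.

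*Slc17a8* was too low for the filter on low values in the class and interneuron region fits. With no filter, where 41.2%, 34.4% and 47.4% of genes were called in these contrasts in the order given, it was 0.42 higher in interneurons than in skeletal MNs (limma adjusted p = 0.000146) and 0.47 higher than in visceral MNs (limma adjusted p = 4.83e-05), and -0.055 between visceral and skeletal MNs (limma adjusted p = 0.595). I8 held 44 of the 68 interneuron nuclei with *Slc17a8*, and without I8, a setting chosen after seeing the data, the differences from skeletal and visceral MNs were 0.13 (limma adjusted p = 0.0194) and 0.19 (limma adjusted p = 0.00207).

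I8 nuclei as a group held *Reln*, a secreted glycoprotein gene, and *Piezo2*, a mechanosensitive channel gene, in every nucleus. *Slc6a5*, the glycine transporter of glycinergic neurons, was in 44 of 44 I8 nuclei with *Slc17a8* and in 280 of 285 without. *Slc32a1*, which loads GABA and glycine into vesicles, was in 8 of 44 and 65 of 285. *Chat* was in 30 of 44 (68.2%, 95% Wilson interval 53.4% to 80.0%) and 137 of 285 (48.1%, 42.3% to 53.9%), pooled over libraries and not tested. The nuclei with *Slc17a8* came largely from libraries with more *Chat* in I8: nuclei without it, weighted to the same libraries, held *Chat* at 56.0%. The share was higher with *Slc17a8* in 5 of the 6 libraries that had such nuclei, which numbered 3 to 14 in each. *Slc5a7* was in 2 of 44 and 17 of 285, so I8 nuclei of either kind rarely held the choline transporter. The nuclei with *Slc17a8* had a median of 3295 genes found and those without had 3019.

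Across interneurons *Slc17a8* was in 1.41% of nuclei with *Chat* and 0.86% of nuclei without (difference 0.55 ± 0.68 points, 7 of 9 libraries higher, exact sign-flip p = 0.0508, adjusted 0.226). That is the difference of the median gene: over all genes tested in interneurons the median was 0.55 points, and 64.5% of genes were above 0.

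The members were seldom found in the same nucleus. *Slc17a6* and *Slc17a8* occurred together in 5 nuclei, where the product of their shares gives 4.22. *Slc17a6* and *Slc32a1* occurred together in 36 interneurons, where the product gives 62.8, and in 7 nuclei of I6, where it gives 4.89. *Slc17a8* and *Slc6a5* occurred together in 46 nuclei, where the product gives 10.5, and 44 of these were in I8, where the product within the cluster gives 43.3.

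No region contrast called either member. *Slc17a6* was 0.43 higher in lumbar/sacral interneurons (SE 0.205, limma adjusted p = 0.9997), in a fit that called 0.051% of 9805 genes. Besides I6, 4 clusters had *Slc17a6* past the filter on low values, and the log2 differences were 0.71 in S1 (limma adjusted p = 0.989), 0.69 in S2 (limma adjusted p = 0.975), 0.58 in I4 (limma adjusted p = 0.9996) and -0.25 in V3 (limma adjusted p = 0.988). The fits called 0.0% of genes in S1, 0.0% in S2, 0.0408% in I4 and 1.55% in V3. In skeletal and visceral MNs, where 0.01% and 4.27% of genes were called, *Slc17a6* fell below the filter. Its shares by region overlapped there (5.78% ± 2.41 against 4.47% ± 1.18 in skeletal MNs, exact permutation p = 0.381, and 3.81% ± 1.29 against 4.25% ± 1.43 in visceral MNs, exact p = 0.655).

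Other genes that handle glutamate went both ways between the classes. Of 13 listed genes for making, supplying and clearing glutamate 12 could be tested, and between interneurons and skeletal MNs 5 were higher, 4 lower and 3 not called (median log2 difference 0.00, against -0.019 over all genes), where 27.8% of all genes tested were higher and 31.7% lower. Among those higher were the uptake transporters *Slc1a6* (1.22), *Slc1a2* (1.02) and *Slc1a1* (0.88). Lower were *Got1* (-0.54) and *Got2* (-0.28), which convert aspartate and glutamate, *Glud1*, glutamate dehydrogenase (-0.47), and *Glul*, glutamine synthetase (-0.38).

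Between interneurons and visceral MNs 7 were higher and 2 lower, with *Slc1a1* at 1.16, where 19.9% of all genes tested were higher and 31.4% lower. Between visceral and skeletal MNs 3 were higher and 6 lower, where 36.7% of all genes were higher and 30.1% lower. The limma fit of I6 nuclei with and without *Slc17a6*, which called 0.212% of all genes, called none of the 12. Among other vesicular transporters, *Slc32a1* was 2.05 higher in interneurons than in skeletal MNs, *Slc18a1*, a monoamine transporter, was 0.81 lower (-0.81), and *Slc18a2* was at 0.02 and not called. *Slc17a5*, the lysosomal sialic acid transporter, was the only other SLC17 gene that could be tested, and was 0.24 higher in interneurons (limma adjusted p = 0.00313).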

How the data were processed

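Nuclei were profiled by single-nucleus RNA-seq (10x Genomics). Per the labels and methods, reads were aligned to mm10 by the authors using Cell Ranger 3.1.0 with introns counted, and then passed through Seurat. The values the authors deposited are scores: counts corrected for depth by SCTransform, so no count model was used. Class and cluster names were the authors', joined by barcode. Corrected counts were summed per library and class or cluster (at least 10 nuclei), scaled to CPM, and tested as log2(CPM + 5) with limma 3.58.1 (R 4.3.3; trend; Benjamini-Hochberg over all genes tested; at least 10 CPM in at least 3 sums; called at an adjusted p of 0.05). The depth of the reads is not kept in these values, and intervals and floors (3 counts of a total of 0) cover counting error only. Shares of nuclei were compared by two-sided exact sign-flip or permutation tests over libraries (scipy 1.17.1), and doublets were scored with scanpy 1.11.5 and kept, with their removal as an alternative. GENCODE vM21 gave the positions.

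The members, gene lists and tests were chosen with earlier results of these data known. Named genes were the members, *Chat*, the listed genes and, for a member with a mean of at least 10 CPM over the clusters, the genes with the most similar pattern; neither member reached that mean, so none was named. Replicate numbers pair libraries by design, since the 3 regions of a replicate come from the same mice. Deviations of same-numbered libraries from the region means correlated at 0.34 to 0.92 in replicates 1 and 2, and in replicate 3 at -0.22 to -0.01 between cervical and the others and 0.75 to 0.85 between thoracic and lumbar/sacral.

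The limma script was tested on simulated data. In 8 draws the mean false share of calls was 5.48% for classes, 6.00% for interneuron regions, 7.50% for the I6 split and 13.1% for I6 regions, against a nominal 5%; the use of the mean over draws was settled after a first draw for I6 regions exceeded the limit of 15%. Cervical and thoracic libraries were not compared with each other, because of the Hox values given above. A few genes of the lists and called sets are not reported here.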

Additional observations from a re-analysis of the deposited data

Results flagged for a closer look

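In clusters and classes with 4 to 10 libraries, 48 sets of shares were examined for a library far from the rest, and 12 were found. A chance rate of about 1 in 20 does not hold for shares that are mostly 0, so the count cannot be set against it. For *Slc17a6* the flagged set was S1, where the lumbar/sacral library of replicate 2 was at 11.6%. For *Slc17a8* it was the share over all cholinergic nuclei, highest at 1.15% in the library labelled thoracic 2, and the highest library in S2 (0.413%), S3 (1.72%), V1 (0.549%), V2 (1.59%), V4 (0.690%), V7 (0.676%), V9 (3.17%), I1 (1.69%), I4 (0.980%) and I7 (4.55%). In S2, V1, V2, V4, V7, V9, I4 and I7 all other libraries were at 0, so these flags rest on 1 or 2 nuclei each.

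Lumbar/sacral libraries differed from the others in the following measures, both chosen after the values by library were seen. The difference in *Chat* share between I6 nuclei with and without *Slc17a6* was lower there by -29.2 points (exact permutation p = 0.0357, and 0.111 with exchanges only within replicates). The co-detection of *Slc17a6* with *Chat* in interneurons was lower there by -4.92 points (exact permutation p = 0.0357, and 0.037 within replicates, the smallest possible). These overlap, since I6 nuclei are among the interneurons.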

How the results depend on the processing

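Of the recomputed values, 335 kept their direction and call or stayed near the reported value, 56 moved, 20 changed sign, 5 gained a call and 5 lost one; causes were not tested unless the alternative itself is the cause. The *Slc17a6* difference between interneurons and skeletal MNs was called with a pseudocount of 20 (0.12), median-of-ratios scaling (0.29), interneurons without I2, I7 and I8 (0.42) and without both doubted libraries of replicate 2 (0.36; an alternative chosen after seeing the data), and turned to -0.26 without I6, as did that against visceral MNs (-0.10). Leaving out each library gave 0.18 to 0.37, called only without cervical replicate 2 (0.37).

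Genes called by region moved in skeletal MNs (1) to 0 with a pseudocount of 1 and 12 with no filter, in interneurons (5) to 2 with a pseudocount of 1, 3 with median-of-ratios scaling and 13 without both doubted libraries, in I8 (9) to 14 with a pseudocount of 20 and 19 without both doubted libraries, and in I6 (85) to 105 without both. With the replicate block, which pairs libraries of the same mice, they were 4 in skeletal MNs, 737 in visceral MNs (428 without it), 44 in interneurons, 182 in I6 (85) and 34 in I8, and no member's call changed; the I6 gap in *Chat* (-29.2 points) lost its call under the block (exact p = 0.111). Leaving out each library gave 0 to 1, 160 to 471, 1 to 9, 23 to 85 and 3 to 19 genes in that order. The I8 *Slc17a8* region difference turned to 0.20 with a pseudocount of 1 and 0.30 without both doubted libraries (-0.62 to 0.30 over single libraries). The I6 split called 2 genes with a pseudocount of 1, 51 with 20, 0 with no filter, and 2 to 36 over single libraries.

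Co-detection of *Slc17a6* in skeletal MNs turned to -0.14 at 2 counts, -0.27 thinned, -0.016 within clusters and -0.48 with at least 20 nuclei of both kinds (-0.48 to 1.14 over single libraries). In visceral MNs it turned to -0.12 at 2 counts, -0.30 thinned, -0.85 within bands of gene number and -0.82 within clusters (-0.32 to 0.75 over single libraries, 1.05 without both doubted ones). In interneurons it turned to -0.34 within clusters, and that of *Slc17a8* to -0.011 at 2 counts. The I6 gap in *Chat* lay at -33.8 to -24.6 over single libraries; its thinned version could not be computed. Shares moved to 16.2% (I6), 2.93% (outside I6) and 4.06% (interneurons) when thinned, and at 2 counts to 6.72%, 0.548%, 0.733% (skeletal), 0.532% (visceral), 1.04% (interneurons) and 0.0275% (*Slc17a8* outside I8). Most nuclei with either transporter held 1 count.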
